A study of Mus musculus with 21 samples.

Results

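The CXC chemokine receptors Cxcr3, Cxcr4, Cxcr5 and Cxcr6 were taken from a table of RNA-seq read counts by their gene symbols, 4 of 49510 genes, and followed across every group of the study. The T cells came from Foxp3-GFP mice, which carry a green fluorescent reporter of Foxp3, the transcription factor that defines regulatory T cells (Tregs). The mice were 8 weeks old and 7 days past a myocardial infarction (MI), the death of heart muscle after its blood supply is cut. There were 7 groups of 3 libraries each. Tregs came from heart, spleen, mediastinal node (MLN, heart-draining) and a node that does not drain the heart (NDLN), and conventional T cells (Tconvs) came from heart, spleen and NDLN. Every group shares the reporter, the age and the infarction, and no uninjured heart and no MLN Tconvs were analysed here. Cells were sorted by magnetic beads and then by flow cytometry. The labels do not say whether replicates came from separate or pooled animals, so the p-values measure the spread between these libraries, which may be technical.

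Chemokine receptors are proteins of the cell surface that couple to inhibitory G proteins and steer a T cell along a gradient of chemokine. Cxcr3 answers the interferon-induced ligands Cxcl9 and Cxcl10 and marks T cells of the type 1 response, and Cxcr6 binds Cxcl16 and is known for T cells that settle in tissues. Cxcr4 binds Cxcl12, which holds lymphocytes and progenitors in bone marrow and is made in injured tissue, and Cxcr5 binds Cxcl13, which draws follicular T cells and B cells into the follicle.

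On GRCm38, as annotated by GENCODE M21, Cxcr3 (ENSMUSG00000050232) lies at chrX:101731535-101734269 on the minus strand and Cxcr4 (ENSMUSG00000045382) at chr1:128588199-128592293, also on the minus strand. Cxcr5 (ENSMUSG00000047880) lies at chr9:44511787-44561877 on the minus strand and Cxcr6 (ENSMUSG00000048521) at chr9:123806475-123811760 on the plus strand. All 4 are protein-coding. Bcl9l, on the opposite strand, shares exon bases with Cxcr5, and Cxcr6 lies inside Fyco1 without sharing exon bases. The strand setting of the read counting is not given in the sources used here, so reads of Cxcr5 and Bcl9l in the shared bases cannot be told apart. Bcl9l had 3150 counts in all libraries together, and its highest level, 49.0 CPM (the gene's count scaled to the total of its library), was in heart Treg replicate 3, where Cxcr5 had 1 count.

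The bases just upstream of Cxcr3, Cxcr4 and Cxcr6 are shown because these 3 genes passed the test for higher levels in the heart described further on. They are read from the RefSeq promoter table of GRCm38.p6, 5′ to 3′ on the strand of the gene, and stop before the first base of the gene in GENCODE. Capitals mark matches to the motifs named in the next paragraph.
Cxcr3 (chrX:101734270-101734397, minus strand): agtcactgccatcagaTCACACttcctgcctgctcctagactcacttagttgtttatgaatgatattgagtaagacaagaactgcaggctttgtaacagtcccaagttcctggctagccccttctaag
Cxcr4 (chr1:128592300-128592549, minus strand): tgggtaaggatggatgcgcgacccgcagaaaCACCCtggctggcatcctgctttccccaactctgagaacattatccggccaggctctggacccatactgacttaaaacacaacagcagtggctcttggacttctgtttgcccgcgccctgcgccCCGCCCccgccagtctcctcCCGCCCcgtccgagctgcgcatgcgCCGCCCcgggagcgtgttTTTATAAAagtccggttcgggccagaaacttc
Cxcr6 (chr9:123806227-123806474, plus strand): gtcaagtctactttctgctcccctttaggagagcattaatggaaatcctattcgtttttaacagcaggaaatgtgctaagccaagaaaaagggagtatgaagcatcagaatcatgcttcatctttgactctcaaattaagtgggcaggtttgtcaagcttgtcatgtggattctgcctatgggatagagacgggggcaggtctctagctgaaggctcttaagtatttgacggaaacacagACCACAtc

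The motifs were searched on both strands in the 250 bases before the RefSeq start. GC content there was 48% for Cxcr3, 61.2% for Cxcr4 and 43.6% for Cxcr6. The T-box core TCACAC, the kind of letters that T-bet reads, was found at -234 of Cxcr3 and is held by 12.1% of 32536 promoters of that length. The RUNX core TGTGGT was found, as its reverse complement ACCACA, at -110 of Cxcr3, which GENCODE places inside the gene, and at -10 of Cxcr6, and 14% of promoters hold it. Cxcr4 held the GC box GGGCGG in 3 places (held by 33% of promoters), the KLF core CACCC at -219 (52.1%) and TATAAA at -30, which overlaps its reverse complement at -32 (12.3%). Neither the AP-1 letters TGANTCA nor the hypoxia core in its form ACGTG were in these windows, against 6.73% and 16.7% of promoters. The form GCGTG was not searched, and its letters stand in the printed Cxcr4 bases shortly before TTTATAAA. A match is a run of letters and does not show a bound site.

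Library totals ran from 14515387 to 28323649 counts, and 14996 genes passed the filter on low counts, all 4 receptors among them. Replicates differed widely, with a biological coefficient of variation of 1.48 over all genes. In 5 libraries mitochondrial ribosomal RNA was only 0.0567% to 0.102% of the reads counted (MLN Treg replicates 1 and 2, heart Treg replicate 1, heart Tconv replicates 1 and 2), and in the other 16 it was 0.954% to 12.3%. All spleen and NDLN libraries were among the 16, so the heart contrast of the receptors is given also with a term for this library set and from the 16 libraries alone, as are some results of single pairs. Values of other genes come from the fit of all 21 libraries only. Foxp3 lay between 39.5 and 247 CPM in the Treg libraries and at or under 0.164 CPM in the Tconv libraries, which matched the labels, and Cd3e, a part of the T cell receptor complex, was at 50.2 to 431 CPM in every library.

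Cxcr3 was measured in every library. Levels are CPM after TMM scaling, listed for replicates 1, 2 and 3. Heart Tregs had 352, 141 and 114 CPM (203 ± 130, SD, n = 3), and heart Tconvs had 205, 152 and 233 CPM (197 ± 41.3). MLN Tregs had 162, 231 and 33.9 CPM (142 ± 99.98), and spleen Tregs had 159, 131 and 38.8 CPM (110 ± 63.1). Spleen Tconvs had 44.0, 226 and 32.6 CPM (101 ± 109). These 5 groups overlapped one another, and the heart libraries were all above 100 CPM. NDLN Tregs were lower, at 96.9, 18.7 and 28.6 CPM (48.1 ± 42.6). NDLN Tconvs were lowest, at 12.9, 18.3 and 0.777 CPM (10.6 ± 8.96), and the third of these values rests on 9 counts. The highest NDLN Tconv value, 18.3 CPM, lay just below the lowest value of the other groups, 18.7 CPM in NDLN Tregs. The share of all genes placed so was not counted.

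Cxcr6 spanned the widest range of group means. Heart Tconvs had 1036, 755 and 575 CPM (789 ± 232, SD, n = 3). Spleen Tconvs had 107, 768 and 96.7 CPM (324 ± 384), so that replicate 2 alone lay within the range of heart Tconvs. Heart Tregs had 128, 89.9 and 279 CPM (166 ± 100). Every heart Treg library lay above all 9 libraries of lymphoid Tregs, a pattern seen in 2.25% of genes, though the nearest values were 89.9 CPM in heart and 89.8 CPM in spleen. Spleen Tregs had 26.6, 89.8 and 29.7 CPM (48.7 ± 35.6) and NDLN Tregs 29.3, 21.04 and 56.3 CPM (35.5 ± 18.4). MLN Tregs had 60.7, 20.4 and 0.226 CPM (27.1 ± 30.8), the last from 5 counts. NDLN Tconvs had 8.61, 63.2 and 0.345 CPM (24.1 ± 34.2), the last from 4 counts. The order of the 4 lowest group means did not stand out from the spread, since their libraries overlapped.

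Cxcr4 had its highest group mean in heart Tconvs, which had 64.2, 50.6 and 25.9 CPM (46.9 ± 19.4, SD, n = 3). Heart Tconvs lay above every spleen and NDLN Tconv library, as did 9.13% of genes. Heart Tregs had 35.2, 8.28 and 2.20 CPM (15.2 ± 17.6), and the high value is that of replicate 1. MLN Tregs had 4.71, 11.8 and 14.6 CPM (10.4 ± 5.12), above all NDLN Treg libraries at 1.43, 3.54 and 3.39 CPM (2.78 ± 1.18). In that pair of groups 9.4% of genes had all MLN libraries above. Spleen Tregs had 5.28, 3.75 and 2.79 CPM (3.94 ± 1.26). Spleen Tconvs had 12.4, 0.550 and 10.4 CPM (7.75 ± 6.32) and NDLN Tconvs 6.44, 6.05 and 0.345 CPM (4.28 ± 3.41). Spleen Treg, spleen Tconv and NDLN Tconv levels overlapped.

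Cxcr5 was uneven between replicates in every group but MLN Tregs. Spleen Tregs had 42.5, 27.3 and 3.88 CPM (24.6 ± 19.5, SD, n = 3), and spleen Tconvs had 54.8, 8.84 and 0.575 CPM (21.4 ± 29.2). NDLN Tconvs had 26.5, 23.5 and 4.40 CPM (18.1 ± 11.97). MLN Tregs had 14.9, 16.8 and 20.5 CPM (17.4 ± 2.82). Heart Tregs had 24.9, 7.38 and 0.0379 CPM (10.8 ± 12.8), and NDLN Tregs had 10.6, 0.0580 and 10.6 CPM (7.09 ± 6.09), so that in each group 1 library was at the level of a single count. Heart Tconvs had 0, 0.0819 and 15.8 CPM (5.28 ± 9.08). A count of 0 in heart Tconv replicate 1 allows up to 0.135 CPM, counting error only. The MLN Treg libraries lay above all NDLN Treg libraries, as did 9.4% of genes, and the other 11 pairs of groups tested overlapped.

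**Figure D1:**
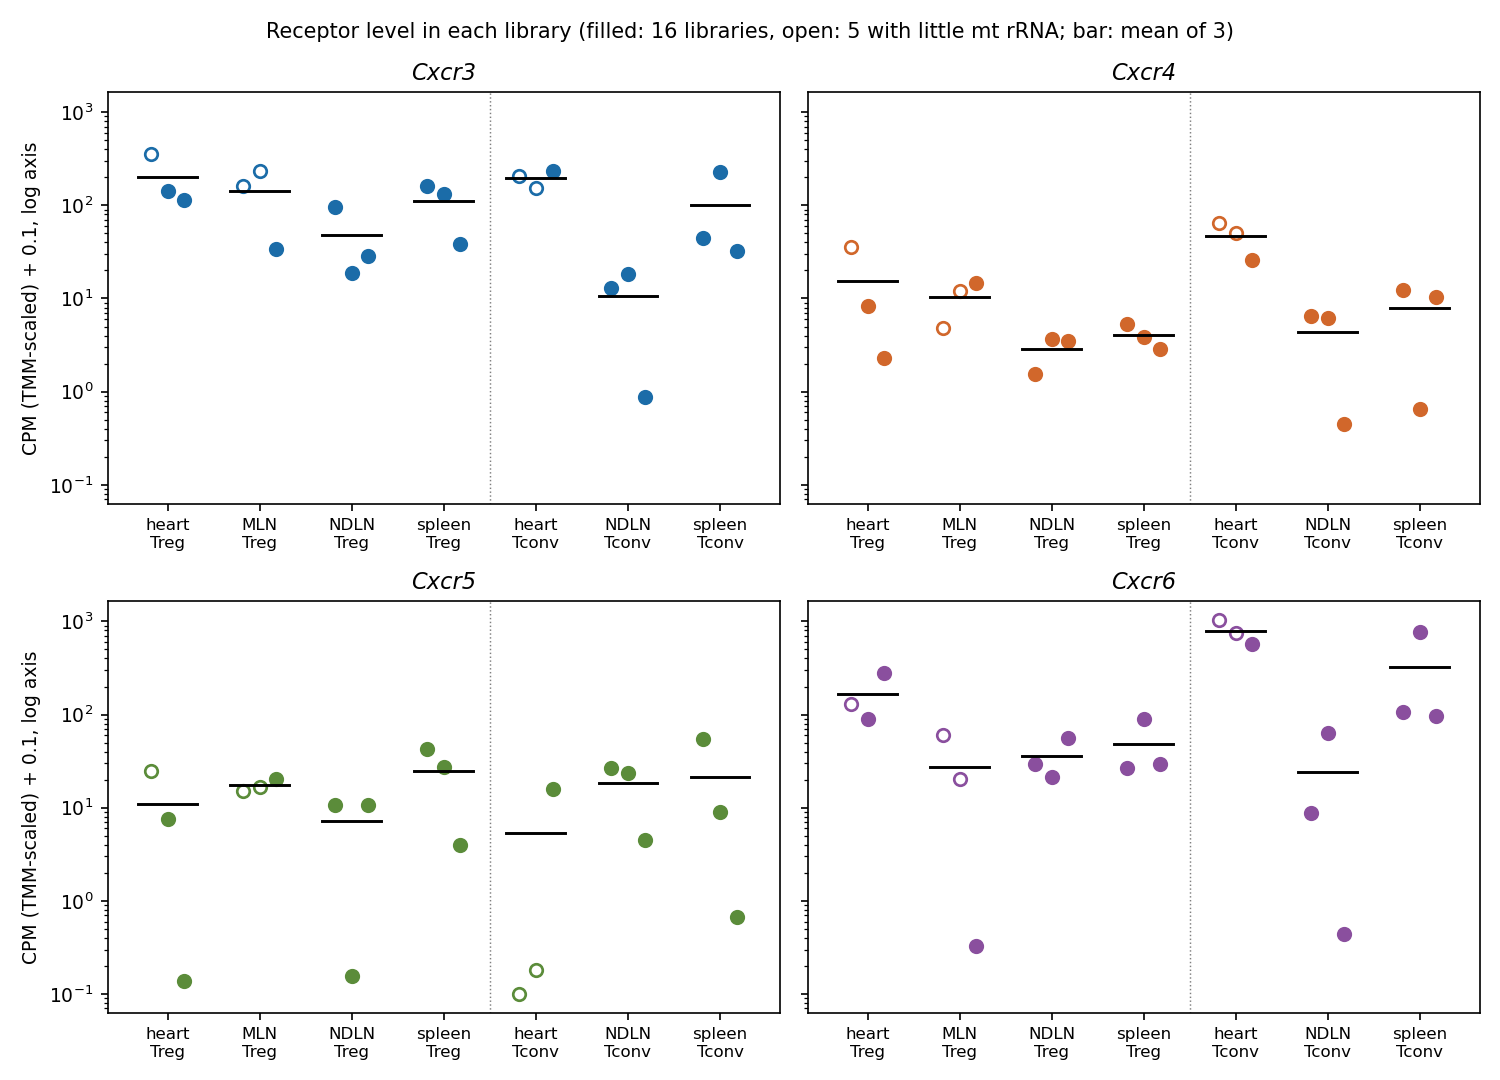
Level of each receptor in each of the 21 libraries, as TMM-scaled CPM plus 0.1 on a log axis, by group, with replicates 1 to 3 from left to right, the mean as a bar, and open points for the 5 libraries with little mitochondrial rRNA. Cxcr6 in heart Tconvs lies between 575 and 1036 CPM, while Cxcr5 falls to 0 or near it in libraries of heart and NDLN.

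The question of whether heart T cells differ from lymphoid T cells was put to both cell types together, as heart minus the mean of spleen and NDLN, averaged over Tregs and Tconvs. Cxcr3, Cxcr4 and Cxcr6 were higher in the heart, and Cxcr5 was not called. Cxcr3 was 4.09-fold higher (log2 2.03, SE 0.54, edgeR adjusted p = 0.017), Cxcr4 6.11-fold (log2 2.61, SE 0.79, adjusted p = 0.033) and Cxcr6 5.97-fold (log2 2.58, SE 0.78, adjusted p = 0.038). Against spleen alone, Cxcr3 differed by log2 0.88 in Tregs and 0.97 in Tconvs (edgeR adjusted p = 0.82 and 0.73). Against NDLN these were 2.08 and 4.21. For Cxcr6 they were 1.77 and 1.29 against spleen (adjusted p = 0.65 and 0.77) and 2.22 and 5.03 against NDLN. For Cxcr4 they were 1.95 and 2.60, and 2.45 and 3.45, in the same order. Heart libraries of both cell types together overlapped those of spleen and NDLN for all 4 receptors. Cxcr5 had a log2 difference of -1.09 (SE 1.299, adjusted p = 0.69), which was -4.50 without heart Tconv replicate 3, still not called. In this contrast 12.9% of all genes were called, 8.42% as higher and 4.45% as lower, and the median gene was at 0.26 on the log2 scale (0.52 with library totals alone and 0.04 with upper-quartile factors). Of those calls 65.4% were higher with TMM factors, 77.0% with library totals alone and 53.5% with upper-quartile factors. In bulk samples, a difference in the number of cells that express a receptor and a difference in RNA per cell cannot be told apart.

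These 3 calls did not hold under every setting. With a term for the library set none passed by edgeR, at log2 1.5 for Cxcr3 (adjusted p = 0.20), 1.87 for Cxcr4 (0.37) and 2.02 for Cxcr6 (0.22). In the 16 libraries alone the differences were 1.83 (adjusted p = 0.24), 1.42 (0.73) and 2.44 (0.17). Only 259 genes were called there and 492 with the term, against 1931. Cxcr4 also lost its call with the replicate number as a block (log2 2.44, adjusted p = 0.073), with upper-quartile factors (log2 2.36, adjusted p = 0.058) and with no filter on low counts (log2 2.55, adjusted p = 0.091). When single libraries were left out, Cxcr3 was lost only without heart Treg replicate 1 (log2 1.70, adjusted p = 0.071). Cxcr4 was lost without any one of 8 libraries (spleen Treg 2 and 3, NDLN Treg 1 and 2, heart Treg 1, spleen Tconv 3, heart Tconv 1 and 2), with log2 between 1.84 and 2.68 and adjusted p from 0.050 to 0.17. Cxcr6 was lost without any one of 11 (spleen Treg 1 and 3, NDLN Treg 1 and 2, heart Treg 1 and 3, spleen Tconv 1 and 3, NDLN Tconv 1, heart Tconv 1 and 2), with log2 between 2.28 and 2.66 and adjusted p from 0.058 to 0.089.

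**Figure D2:**
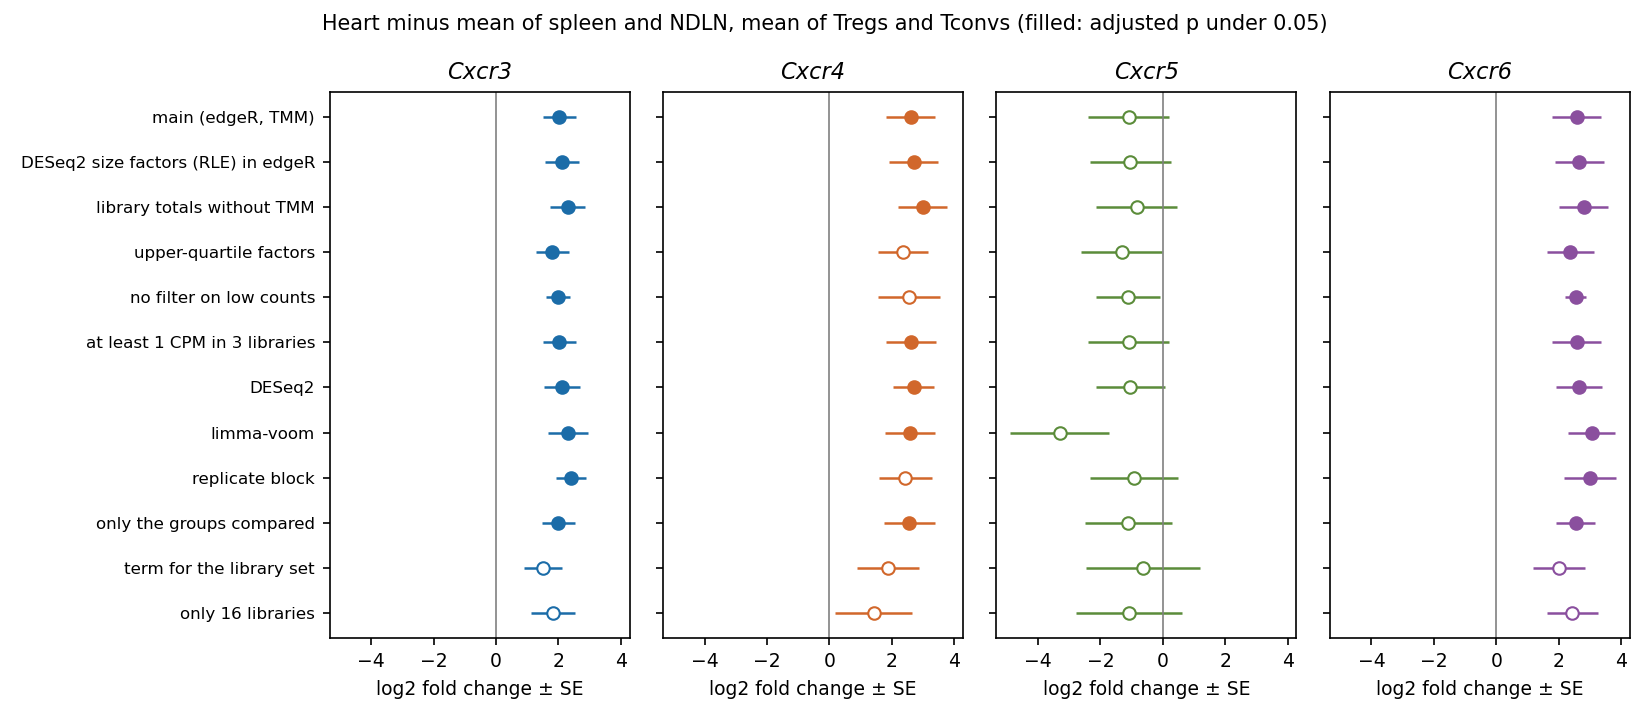
Log2 fold change (± SE) of the heart contrast for each receptor under the reported fit and the alternatives, with filled points where the adjusted p was under 0.05. Cxcr3, Cxcr4 and Cxcr6 lie right of 0 under every setting shown but are open with the library-set term and in the 16 libraries, Cxcr4 is open also with the replicate block, upper-quartile factors and no filter, and Cxcr5 lies left of 0 and is open throughout.

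Single pairs of groups were tested next, 12 pairs for each receptor. Of the 48 tests 1 was called and 7 had an unadjusted p under 0.05. The share of all genes at that unadjusted level is not given here, so the 7 have no background. Of all genes, 2.88% were called between heart and NDLN Tconvs, 0.533% between heart and NDLN Tregs, 0.473% between heart and spleen Tconvs, 0.3% between NDLN Tregs and Tconvs and 0.147% between heart and spleen Tregs. The share was 0.0667% for heart Tregs against MLN Tregs and against heart Tconvs, 0.06% for spleen Tregs against Tconvs, 0.04% for NDLN against spleen Tconvs, 0.00667% for NDLN Tregs against MLN or spleen Tregs, and 0% for MLN against spleen Tregs. Cxcr3 was 18.5-fold higher in heart Tconvs than in NDLN Tconvs (log2 4.21, SE 1.04, edgeR adjusted p = 0.030), the 1 call. It did not pass when any of the 6 libraries compared was left out, at log2 3.66 to 4.84 and adjusted p from 0.051 to 0.081, nor with the library-set term (log2 3.66, adjusted p = 0.11). Heart Tconv libraries lay above all NDLN Tconv libraries also for Cxcr4 (log2 3.45, SE 1.46, adjusted p = 0.23) and Cxcr6 (log2 5.03, SE 1.57, adjusted p = 0.097), and 16.6% of genes did the same. NDLN Tconv replicate 3 was the lowest of the 21 libraries for Cxcr3 and Cxcr4, and for Cxcr6 only MLN Treg replicate 3 was lower. Without NDLN Tconv replicate 3 the log2 differences were 3.66 for Cxcr3, 2.91 for Cxcr4 and 4.46 for Cxcr6. Cxcr6 passed this pair without MLN Treg replicate 3 (log2 5.03, adjusted p = 0.029), a library outside the pair that enters the shared estimate of spread.

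Between Tconvs of NDLN and spleen, the NDLN libraries lay below for Cxcr3 (log2 -3.24, SE 0.99, adjusted p = 0.46) and Cxcr6 (log2 -3.75, SE 1.47, adjusted p = 0.55), as did 5.37% of genes. Without spleen Tconv replicate 2 these became -1.84 and -2.08, and without NDLN Tconv replicate 2 that of Cxcr6 was -6.16. Cxcr4 in heart Tconvs stood above spleen Tconvs in every library (log2 2.60, SE 1.41, adjusted p = 0.43; 14.3% of genes did so).

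Among Tregs no receptor passed in any pair in the reported fit, while with no filter on low counts Cxcr6 passed by edgeR against NDLN Tregs (adjusted p = 0.023) and MLN Tregs (adjusted p = 0.0056). The share of all genes called in these pairs with no filter is not given here. Heart Tregs were above spleen Tregs in Cxcr6 (log2 1.77, SE 1.36, adjusted p = 0.65), and 6.66% of genes were so placed. Against MLN Tregs the Cxcr6 difference was 2.61 (SE 1.403, adjusted p = 0.51; 4.69% of genes lay above). It was 3.99 without MLN Treg replicate 1, and 9.64 in the 16 libraries, where MLN Tregs are represented by replicate 3 with its 5 counts. Against NDLN Tregs, Cxcr6 differed by 2.22 (SE 1.38, adjusted p = 0.43) and Cxcr3 by 2.08 (SE 0.95, adjusted p = 0.32), both without overlap, as in 8.48% of genes. Cxcr4 in heart Tregs differed from NDLN Tregs by 2.45 (SE 1.403, adjusted p = 0.37), with overlap. Without heart Treg replicate 1 it was 0.91, and in the 16 libraries 0.94, while the 16 libraries gave 1.42 for Cxcr3. Against the mean of the 3 lymphoid Treg groups, the log2 differences were 1.16 for Cxcr3, 1.65 for Cxcr4 and 2.20 for Cxcr6, with adjusted p of 0.44, 0.45 and 0.30, where 0.967% of genes were called. Without heart Treg replicate 1 they were 0.49 for Cxcr3 and 0.11 for Cxcr4. In the 16 libraries alone that of Cxcr4 was -0.05 and that of Cxcr6 4.66, not called. MLN Tregs, from the node that drains the heart, differed from NDLN Tregs by 1.57 for Cxcr3 (SE 0.93, adjusted p = 0.54), 1.90 for Cxcr4 (SE 1.38, adjusted p = 0.67), 1.29 for Cxcr5 (SE 2.05, adjusted p = 0.96) and -0.39 for Cxcr6 (SE 1.32, adjusted p = 1). The Cxcr3 difference turned to -0.49 in the 16 libraries, which hold 1 of the 3 MLN Treg libraries, and was 0.62 with the library-set term. It was 2.59 without NDLN Treg replicate 1 and 1.03 without MLN Treg replicate 2.

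Tregs were then set against Tconvs of the same tissue. Every heart Treg library had less Cxcr6 than every heart Tconv library (log2 -2.25, SE 1.38, adjusted p = 0.67), an order shared by 8.17% of genes. Spleen Tregs stood below spleen Tconvs as well (log2 -2.73, SE 1.41, adjusted p = 0.62; 5.67% of genes), and the value was -1.06 without spleen Tconv replicate 2. Cxcr3 in NDLN Tregs lay above NDLN Tconvs (log2 2.17, SE 0.95, adjusted p = 0.42; 7.98% of genes), while in heart the difference was 0.04 (SE 0.91) and in spleen 0.12 (SE 0.91). The difference of these differences between heart and NDLN was -2.13 (SE 1.3, adjusted p = 0.67), which did not pass. Without NDLN Treg replicate 1 the NDLN difference was 1.15 and this difference of differences -1.11. No interaction of tissue and cell type passed for any receptor in the reported fit (0.0133% of all genes did for heart against spleen and for heart against NDLN, and 0% for NDLN against spleen), and neither did Tregs against Tconvs over the 3 tissues, where Cxcr6 was at -1.47 (SE 0.78, adjusted p = 0.44) and 1.81% of genes were called. Cxcr6 was there at -0.67 without NDLN Tconv replicate 2, at -0.92 without spleen Tconv replicate 2 and at -0.99 with the replicate block. With no filter on low counts edgeR called Cxcr6 in this contrast (adjusted p = 0.0015), in the interaction of NDLN and spleen (log2 3.28, adjusted p = 0.037) and in heart Tregs against the mean of lymphoid Tregs (log2 2.22, adjusted p = 6.7e-05). The shares of all genes called there with no filter are not given here.

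Tested for any difference among the 7 groups, edgeR called none of the 4 receptors, at adjusted p of 0.16 for Cxcr3, 0.28 for Cxcr4, 1 for Cxcr5 and 0.12 for Cxcr6, with 3.3% of all genes called. At an unadjusted p under 0.05 there were 2, Cxcr3 and Cxcr6, and the share of all genes at that level is not given here. DESeq2 called Cxcr3, Cxcr4 and Cxcr6 in this test, and limma-voom called Cxcr6. The shares of all genes that DESeq2 and limma-voom called in it are not given here. In the heart contrast DESeq2 called more genes than edgeR, so its calls here cannot be set against the edgeR share. With edgeR, Cxcr6 passed without MLN Treg replicate 3 (adjusted p = 0.028) and without NDLN Tconv replicate 2 (adjusted p = 0.046).

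**Figure D3:**
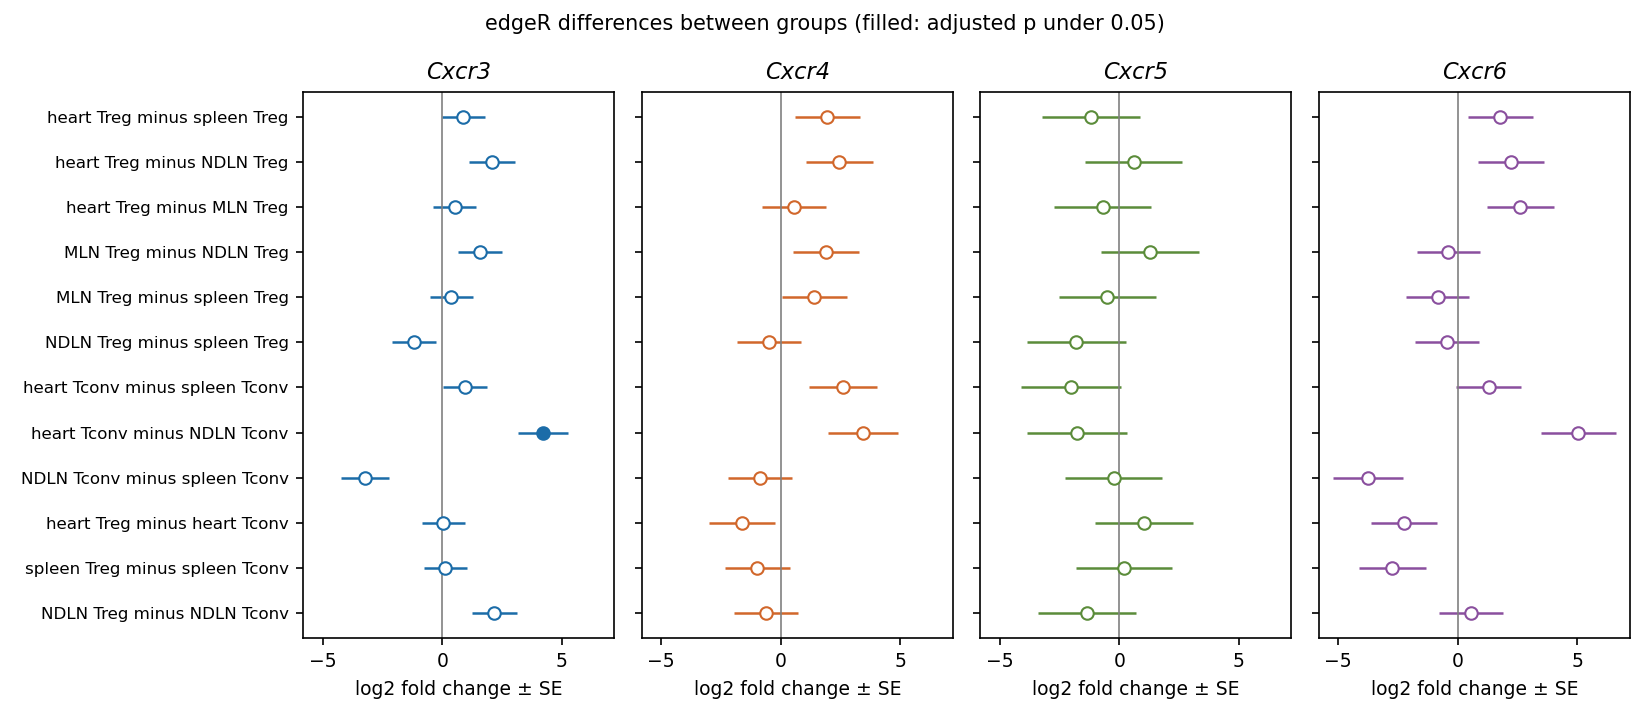
Log2 fold change (± SE) of each receptor in the 12 pairs of groups, with the filled point for the single call, Cxcr3 in heart Tconvs against NDLN Tconvs at log2 4.21. The Cxcr5 bars cross 0 in every pair.

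Which receptor led within a cell type was read per length, as CPM per kilobase of exon, with exon lengths of 1731 bases for Cxcr3, 1808 for Cxcr4, 3332 for Cxcr5 and 1931 for Cxcr6. Cxcr3 led in all 3 libraries of MLN Tregs and of spleen Tregs and in 2 of 3 of heart Tregs. Cxcr6 led in all 3 libraries of heart Tconvs and of spleen Tconvs and in 2 of 3 of NDLN Tregs. Cxcr5 led in 2 of 3 NDLN Tconv libraries. The ratio of Cxcr6 to Cxcr3 per kilobase was 2.21 to 4.54 in heart Tconvs and 2.18 to 3.04 in spleen Tconvs, while in spleen Tregs it was 0.150 to 0.686 and in MLN Tregs 0.00599 to 0.335. Heart Tregs spanned 0.326 to 2.19. The ratios of heart and spleen Tconvs did not overlap those of spleen and MLN Tregs. How often other pairs of genes separate these groups was not counted. The MLN Treg ratio of 0.00599, in replicate 3, rests on 5 counts of Cxcr6. In NDLN the cell types were not separated, at 0.271 to 1.76 in Tregs and 0.398 to 3.10 in Tconvs. The NDLN Tconv ratios also overlapped those of spleen Tregs and of heart and spleen Tconvs. This ratio needs no scaling between libraries, and it was described only, with no test.

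**Figure D4:**
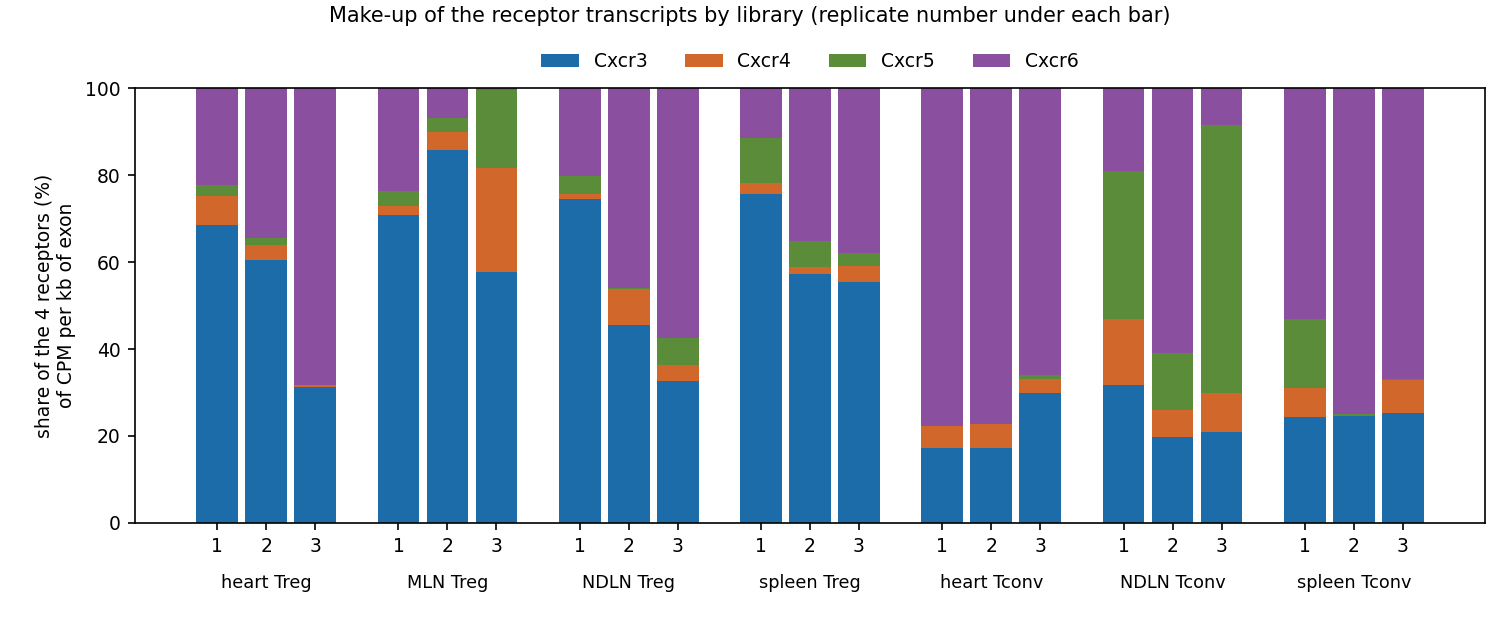
Share of each receptor in the sum of the 4, in percent of CPM per kilobase of exon, for each of the 21 libraries (bars, replicate number beneath). Cxcr6 holds 65.9% to 77.7% in heart Tconvs and 53.2% to 74.9% in spleen Tconvs, and Cxcr3 holds 55.3% to 75.8% in spleen Tregs.

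The ligands and the machinery around the receptors were read from lists, in the same heart contrast and against the background of 12.9% called and a median of 0.26. Of 6 ligands, 3 were tested and Cxcl10, a ligand of Cxcr3, was higher in the heart (log2 3.63, edgeR adjusted p = 0.029), at 302 ± 290 CPM in heart Tregs and 104 ± 53.9 CPM in heart Tconvs against 7.04 to 20.9 CPM in the spleen and NDLN group means. Of 6 further receptors, 2 were tested and Cx3cr1 was higher (adjusted p = 0.032), at 27.7 ± 34.01 CPM in heart Tconvs and 0 counts in both NDLN groups, so no fold is given, while Ackr3 and Ackr4, the scavenging receptors, had 0 counts in all libraries.

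Of 15 genes that carry the signal from inhibitory G proteins, 3 were higher in the heart and none lower, with a median log2 of 0.77. Rap1b, the small GTPase that turns on integrins, had log2 1.77 (edgeR adjusted p = 0.00099). The G protein subunits Gnb1 (log2 1.54, adjusted p = 0.032) and Gng2 (log2 0.82, adjusted p = 0.042) were the others. Of 14 genes of desensitisation and receptor turnover, 4 were higher and none lower, with a median of 1.53 (1.47 where groups at 0 counts were set to the level of 3 counts). Rgs1 and Rgs2, which shut off G protein signals, had log2 2.05 (adjusted p = 5.5e-05) and 3.40 (adjusted p = 2.5e-05). Rgs1 was at 3602 ± 1125 CPM in heart Tregs and 4546 ± 1120 CPM in heart Tconvs, and at 631 to 1330 CPM in the spleen and NDLN group means. Rgs16 and Grk5 were the others called, both at 0 counts in groups of spleen or NDLN, so no fold is given. Rgs10 was called only as lower in heart Tconvs than in NDLN Tconvs, at 185 ± 17.4 against 430 ± 95.3 CPM.

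Of 14 genes of the type 1 programme in which Cxcr3 is known, 6 were higher in the heart and none lower, with a median log2 of 1.72. Ifngr1, a chain of the interferon gamma receptor, had log2 3.61 (edgeR adjusted p = 4.4e-07), at 2100 ± 218 CPM in heart Tregs and 2268 ± 339 CPM in heart Tconvs against 148 to 254 CPM in spleen and NDLN group means. Il18r1, a chain of the interleukin-18 receptor, had log2 2.53 (adjusted p = 0.014). Gzmk and Txk did not pass in this contrast (log2 -0.84 and -0.44) and were lower in Tregs than in Tconvs over the 3 tissues (log2 -8.13, adjusted p = 0.0096, and -1.04, adjusted p = 0.043).

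Of 15 genes linked to staying in or leaving tissue, 8 were higher in the heart, with a median log2 of 1.89 (1.71 with groups at 0 set to 3 counts). Bhlhe40, a transcription factor of activated and resident T cells, had log2 5.43 (edgeR adjusted p = 0.00048) and the adhesion receptor Cd44 log2 1.60 (adjusted p = 0.0026). Ccr7, which guides cells towards and within lymph nodes, was also higher (log2 2.25, adjusted p = 0.00055). Itgae was not called there (log2 2.47, adjusted p = 0.079) and was higher in Tregs than in Tconvs (log2 6.08, adjusted p = 0.0054).

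Of 14 genes known to act on Cxcr4, 3 were higher in the heart and none lower, with a median log2 of 0.78. They were Hif1a, the oxygen-sensing factor (log2 1.62, edgeR adjusted p = 0.00014), the glucocorticoid receptor Nr3c1 (log2 2.13, adjusted p = 0.0027) and its target Tsc22d3 (log2 1.12, adjusted p = 0.047). Of 14 follicular genes around Cxcr5, 2 were lower in the heart and none higher, with a median of -0.51. Sh2d1a, an adaptor that follicular T cells need, had log2 -1.70 (adjusted p = 0.00037) and Cd200 log2 -2.42 (adjusted p = 0.0079). For Tregs against Tconvs 2 of these 14 were called higher and 2 lower. Maf (log2 1.495, adjusted p = 0.0031) and the costimulatory receptor Icos (log2 1.91, adjusted p = 0.027) were higher in Tregs, and the cytokine genes Il4 and Il21 were lower (adjusted p = 0.030 for Il4 and 0.027 for Il21, which had 0 counts in every Treg library).

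Markers of other cells moved with some of these groups. The 8 fibroblast markers summed to 120 to 524 CPM in heart Tregs, 1.12 to 152 CPM in heart Tconvs and at most 5.47 CPM in any spleen, NDLN or MLN library, and 7 of the 7 tested were called higher in the heart. Their part in the heart results was not tested. Heart Tconv replicate 1, with 1.12 CPM of fibroblast markers, had the highest Cxcr4 and Cxcr6 of all libraries. Its 8 macrophage and monocyte markers summed to 130 CPM, the highest such sum of all libraries. The part of macrophage RNA in the receptor levels was not tested either. The 10 B cell markers summed to 254 to 483 CPM in spleen Tregs and 292 to 360 CPM in NDLN Tregs, and to at most 22.0 CPM in spleen Tconvs and 2.67 CPM in NDLN Tconvs, with 0, 2, 5 and 7 of the 10 at 0 counts in these groups. The sum was 29.3 to 88.1 CPM in MLN Tregs, 0.118 to 25.1 CPM in heart Tregs and 0 to 43.4 CPM in heart Tconvs, with 7, 6 and 2 markers at 0 counts. Cxcr5, which B cells also express, reached 54.8 CPM in spleen Tconv replicate 1 and 26.5 CPM in NDLN Tconv replicate 1, where the B cell genes Cd79a and Ms4a1 had 0 counts. In NDLN Treg replicate 2, with 292 CPM of B cell markers, Cxcr5 was at 0.0580 CPM. In spleen Treg replicates 1, 2 and 3, with 254, 483 and 385 CPM of B cell markers, Cxcr5 was at 42.5, 27.3 and 3.88 CPM. The part of B cell RNA in the Cxcr5 levels was not tested.

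The 10 CD8, NK and NKT cell markers summed to 1209 to 3784 CPM in heart Tregs, 1364 to 1905 CPM in heart Tconvs, 520 to 2227 CPM in spleen Tconvs and 104 to 224 CPM in NDLN Tconvs, with lymphoid Tregs at 333 to 1054 CPM. Nkg7 and Gzmb made up most of the mean sum in every group but NDLN Tconvs, and activated T cells also express both. Of the CD8 chains, Cd8a was at or under 17.8 CPM in every library and at 0 counts in all heart Treg and NDLN Tconv libraries, but Cd8b1 averaged 9.19 ± 15.9 CPM in heart Tregs and 17.9 ± 18.4 CPM in NDLN Tconvs, and up to 37.7 ± 12.5 CPM (NDLN Tregs) elsewhere. The highest sum among spleen Tconvs, 2227 CPM, and the highest Klrb1c of all libraries, 103 CPM, were in replicate 2, the library with 768 CPM of Cxcr6. Other markers of this list were uneven in spleen Tconvs. Ncr1 was at 0 CPM in every Tconv group and Zbtb16 averaged 0.0384 CPM in spleen Tconvs. Klrd1 averaged 116 ± 60.9 CPM there and Gzma 210 ± 358 CPM. The part of these cells in the Cxcr3 and Cxcr6 levels was not tested.

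The 6 erythroid markers summed to 1138 to 25007 CPM in spleen Tregs, 405 to 1267 CPM in spleen Tconvs and 253 to 27675 CPM in MLN Tregs, and to at most 32.9 CPM in any heart or NDLN library. In the heart contrast all 6 had log2 values below 0 and none was called. MLN Treg replicate 3, with the highest sum, had the lowest Cxcr6 of all libraries, at 0.226 CPM, while spleen Treg replicate 1, with 25007 CPM of these markers, had 26.6 CPM of Cxcr6. The part of erythroid RNA in the receptor levels was not tested.

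Across the 21 libraries, on log2(CPM + 1), Cxcr3 and Cxcr6 had a Pearson r of 0.68, Cxcr3 and Cxcr4 of 0.45, Cxcr4 and Cxcr6 of 0.39, and Cxcr5 and Cxcr6 of -0.31. The libraries share groups and depth, so these values describe the table only. The genes most like Cxcr3 were Prr13 (r = 0.872), Slc25a39 (0.869), Ndfip1 (0.858), Snrpb (0.851) and Arf1 (0.848). Those most like Cxcr4 were Il17a (r = 0.816), Rab14 (0.782), Pnrc1 (0.777), Ndel1 (0.756) and Plk3 (0.750). Il17a, the cytokine of type 17 T cells, averaged 219 CPM in heart Tconvs and 23.6 CPM in spleen Tconvs. For Cxcr6 the closest were Degs1 (r = 0.828), Imp4 (0.819), Rnf145 (0.810), Gch1 (0.788) and Il18rap (0.785), the last a chain of the interleukin-18 receptor. Cxcr5 had weaker matches, with Phf11c (r = 0.717), Prdx3 (0.689), AW209491 (0.681), Dnah8 (0.660) and Cbr4 (0.653).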

How the data were processed

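The deposited values are counts of reads per gene, whole numbers that the authors did not normalize, for 49510 genes in 21 libraries. CASAVA 1.8.2, HTSeq 0.6.0 and HISAT2 are named, with the build mm10, per the submitters' processing notes. For the annotation and the strand setting of the counting, the entry is: not given in the sources used here. Per the labels' protocols, libraries were made with a kit for very small amounts of RNA.

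Groups and replicate numbers were taken from the library titles. The counts were filtered with edgeR's filterByExpr (minimum count 10, minimum total 15), leaving 14996 genes, and scaled by TMM (factors 0.798 to 1.35). A single fit of all libraries with a coefficient per group was tested with the quasi-likelihood F-test (edgeR 4.0.16, R 4.3.3), Benjamini-Hochberg adjusted over all genes, and called at an adjusted p under 0.05. For the 4 receptors 76 tests were run in all, of which 4 were called. The scripts were tested on simulated data.

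The receptors, contrasts and lists were chosen with earlier results of these data known. Of each list, up to 4 called genes by smallest p over the groups are named, with genes at 0 counts throughout. Grk5, Cd200, Icos and Cd8b1 were added after their values were seen to complete short counts or pairs. Ncr1, Zbtb16, Klrd1 and Gzma were added likewise to show both sides of their list. Some single-gene results are not reported here. Which receptor differences were followed through the alternatives (at least 1.5 SE from 0, or the heart or any-difference test) was also set after the results were seen. Alternatives were other scalings, filters, DESeq2 1.42.0, limma 3.58.1 (voom), subsets of libraries, the library set and a replicate block. Numbers were taken to pair libraries only if all same-numbered pairs had deviations with r over 0.1, and 5 of 63 did, so they were not. This rule is strict and cannot exclude pairing, and 16 of 21 libraries correlated best with one of their own number. No replicate pair agreed within sampling noise. Intervals and floors cover counting error only.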

Additional observations from a re-analysis of the deposited data

How the results depend on the processing

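Over 12 settings other than leaving out a library, 275 values of the 25 receptor differences followed kept their sign and 2 did not. In the 16 libraries with more mitochondrial rRNA, Cxcr3 in MLN less NDLN Tregs became -0.49 and Cxcr4 in heart Tregs less the mean of lymphoid Tregs -0.047 on the log2 scale. In the heart contrast, Cxcr4 also lost its call by upper-quartile factors (2.36), with no filter (2.55) and with the replicate block (2.44, adjusted p = 0.073), beside the library-set term (1.87) and the 16 libraries (1.42). Cxcr3 (1.5 and 1.83) and Cxcr6 (2.02 and 2.44) lost it under the last pair of settings. Within the 5 libraries with little mitochondrial rRNA, an alternative chosen after seeing the data, Cxcr6 differed by 1.66 (heart less MLN Tregs) and -2.84 (heart Tregs less heart Tconvs), not called. The cause was not tested.

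Cxcr3 in heart less NDLN Tconvs lost its call by limma-voom (4.82), with the library-set term (3.66), in the 16 libraries (4.45) and with only the groups compared (4.195). Of the 12 pairs, Cxcr3 then had 0 called under these 4 settings, and 2 with no filter and 2 by DESeq2. Cxcr4 had 1 by DESeq2, and Cxcr6 had 5 with no filter, 2 by DESeq2 and 1 by limma-voom. The numbers of all genes called under these settings are given below for heart less NDLN Tconvs only. With no filter, Cxcr6 in the heart contrast had an SE of 0.34 at log2 2.54, against 0.78 at log2 2.58 in the reported fit.

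The test of any difference gave adjusted p of 5.1e-05 (no filter), 0.015 (DESeq2) and 0.044 (replicate block) for Cxcr3, 0.0085 (DESeq2) for Cxcr4, and 3.7e-25 (no filter), 0.00036 (DESeq2) and 0.0018 (limma-voom) for Cxcr6. Shares of all genes called in this test under these settings are not given here. The replicate block also removed the heart call of Cxcr4, as given above, and changed no other call among the receptor results followed. Of libraries, 16 of 21 correlated best with one of their own number, a hint from the data and not the design.

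In the heart contrast 3687 genes were called by DESeq2, 492 with the library-set term and 259 in the 16 libraries. In heart less NDLN Tconvs, 785 were called with no filter, 2717 by DESeq2, 1049 by limma-voom, 80 with the term, 19 in the 16 libraries and 81 with only the groups compared.

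Leaving out each library in turn was first run with the low-count filter applied again (16359 to 16719 genes tested) and, after those results were seen, with the 14996 genes held. Calls were lost in 1 of 21 (first 1) for Cxcr3, 8 (first 11) for Cxcr4 and 11 (first 16) for Cxcr6 in the heart contrast, and in 6 (first 5) for Cxcr3 in heart less NDLN Tconvs. Over both runs the heart differences were 1.70 to 2.38 for Cxcr3, 1.84 to 2.87 for Cxcr4, -4.50 to -0.55 for Cxcr5 and 2.27 to 3.18 for Cxcr6, and Cxcr3 in heart less NDLN Tconvs 3.66 to 4.84. The adjusted p of any difference ran from 0.028 to 0.27 for Cxcr6. Pairs called were 0 to 1 for Cxcr3 and for Cxcr6. Genes called were 1189 to 2112 in the heart contrast and 91 to 514 in heart less NDLN Tconvs. At 3 counts, the depth limits a level to 0.1004 to 0.259 CPM.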
